A study of Mus musculus with 18 samples.

Results

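The Rab GTPases were followed through hippocampal RNA of mice that lack or overexpress the microRNAs miR-132 and miR-212. A gene was taken as a member when its symbol in a deposited count table was Rab followed by a number, with an optional letter and number after it. This rule used names alone and found 46 of the 11738 gene symbols listed in any of the 3 tables, of which 24 were listed in all 3. There were 43 members among 10541 symbols in the deletion table, 45 among 10799 for tTA::miR132, and 24 among 4618 for tTA::miR212. By their textbook location, 6 members belong to synaptic vesicles (Rab3 and Rab27), 13 to early and recycling endosomes, 5 to late endosomes and lysosome-related organelles, 11 to the endoplasmic reticulum and Golgi, 7 to exocytosis and the cilium, and 4 to none of these.

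Rab proteins are small GTPases that mark the membranes of a cell. Bound to GTP, a Rab sits on its own compartment and recruits effectors that bud, move, tether or fuse vesicles, and after GTP hydrolysis it is drawn off the membrane by GDP dissociation inhibitor. In neurons, Rab3 and Rab27 proteins ride on synaptic and secretory vesicles and act just before release, whereas Rab5, Rab4 and Rab11 pass receptors and vesicle membrane through early and recycling endosomes. miR-132 and miR-212 come from neighbouring genes, are raised by neuronal activity and lower the output of messenger RNAs that pair with their shared seed.

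All animals were C57BL/6, and the labels state no age. The miR-132/212 cKO mice carried CaMKII-Cre and floxed alleles (CaMKII-Cre::miR-132/212f/f), a design in which the CaMKII promoter directs removal of the microRNA genes to excitatory forebrain neurons, so that other hippocampal cells keep them. Levels of the microRNAs themselves were not analysed here. The tTA::miR132 and tTA::miR212 mice carried a tetracycline transactivator with a transgene for the named microRNA. Each of these groups had its own nontransgenic control mice, called cKO control, miR132 control and miR212 control here. The controls lack Cre and tTA as well, so an effect of a driver and an effect of the microRNA cannot be told apart. Whole hippocampus was sampled, in which fewer cells of a type and less RNA per cell cannot be told apart. The cDNA of 6 animals was pooled into 3 replicates of each group per the series design text, so p-values measure the spread between such pools. The tables analysed hold 2 libraries of each group for the deletion and tTA::miR132 and 3 of each for tTA::miR212.

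Counts summed to between 8190899 and 14772907 per library in the deletion and tTA::miR132 tables and to between 1299376 and 1544926 over the transcripts kept in the tTA::miR212 table, which sets the counting precision of each value. Neuronal, astrocyte, oligodendrocyte and microglial markers were present in every table, with summed neuronal markers between 5748 and 7076 CPM (the count scaled to a fixed library total) in the first 2 tables and between 9930 and 11081 CPM in the tTA::miR212 table. Summed markers of choroid plexus, an epithelium beside the hippocampus, were 506.5 and 1739 CPM in miR-132/212 cKO libraries 1 and 2 against 4446 and 4941 CPM in cKO control libraries, from 6 of 7 markers measured. Folr1, Otx2, Clic6 and Aqp1 were at 0 in cKO library 1 and Otx2 in cKO library 2. Their part in the values below was not tested. miR-132/212 cKO library 1 stood apart, with 9.93% of its genes at a count of 0, against 1.14% in cKO library 2 and 0.854% and 0.693% in the control libraries. Deletion values without it are therefore given beside those it moved, and no member was called with or without it.

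The microRNA sequences are shown because the whole design turns on them, and their seeds (bases 2 to 8) are in capitals. Both are RefSeq entries on the plus strand of GRCm38.p6, at chr11:75173723-75173744 for miR-132-3p and chr11:75173443-75173464 for miR-212-3p.
mmu-miR-132-3p: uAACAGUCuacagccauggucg
mmu-miR-212-3p: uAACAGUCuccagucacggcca
The seeds are identical, so the same 7-base site, GACTGTT on the transcript strand, matches both. It was searched for in the longest annotated 3′ untranslated region of each gene (GENCODE vM1, mm9), and 7 of the 45 members with such a region held it, or 15.6%, against 13.2% of the 11272 genes of the tables with an annotated region. The median length of this region was 1951 bases among members and 1287 bases among all those genes. A site is shown for each of the 7 members, with the match in capitals.
Rab11a: taaacacaaagGACTGTTatggtttgca
Rab15: gccccagggagGACTGTTcaccctgctc
Rab33b: gttttcttctgGACTGTTtcagtacaga
Rab36: cacctttctatGACTGTTcattaactca
Rab3b: agttggttcttGACTGTTgggataccat
Rab40c: gtgaagccatgGACTGTTcccccacaat
Rab8b: tatttacctctGACTGTTtggtgtctta
Rab15 and Rab8b each hold 2 matches, and the first in each is shown. Rab11a holds the only match followed by an A, at chr9:64564040-64564046 on the minus strand of mm9. Among these 7 only Rab3b is a synaptic vesicle Rab, while Rab11a and Rab15 belong to early and recycling endosomes.

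No member passed the test in any comparison. With edgeR's quasi-likelihood test and Benjamini-Hochberg adjustment over all genes at a threshold of 0.05, 0 of 43 members were called in the deletion, 0 of 45 in tTA::miR132 and 0 of 24 in tTA::miR212, where the share called among all genes tested was 0%, 0% and 0%. At an unadjusted p under 0.05, 0 members were called in the deletion, against 0.839% of all genes. In tTA::miR132 1 was called, Rab11a, against 2.82% of all genes. By the transcripts kept in tTA::miR212, 0 were called, against 5.65% of all genes. DESeq2 and limma-voom also called 0 members in each comparison. The median log2 fold change of the members was 0.03 in the deletion, 0.10 in tTA::miR132 and 0.01 in tTA::miR212, against -0.03, -0.00 and 0.00 over all genes tested. Without cKO library 1 the median of the deletion was -0.00, against -0.01 over all genes.

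The breadth of the intervals differed greatly between the tables. In tTA::miR212 all 24 members had a 95% interval of the log2 fold change within 0.5 of 0, with a median half-width of 0.23. In the deletion 2 of 43 members and in tTA::miR132 3 of 45 had such an interval, and the median half-widths there were 0.93 and 0.85. Only 16 of the 43 and 17 of the 45 had an interval within 1 of 0, so the others allow a difference of over 1 log2 unit. The tTA::miR212 table does not list many scarce members, such as Rab7l1, Rab30 and Rab43, so these counts cover unlike sets of members. The biological coefficient of variation, the spread between libraries of a group that edgeR estimates beyond counting error, was 74.2% in the deletion table, 60.7% in the tTA::miR132 table and 8.58% in the tTA::miR212 table.

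**Figure D1:**
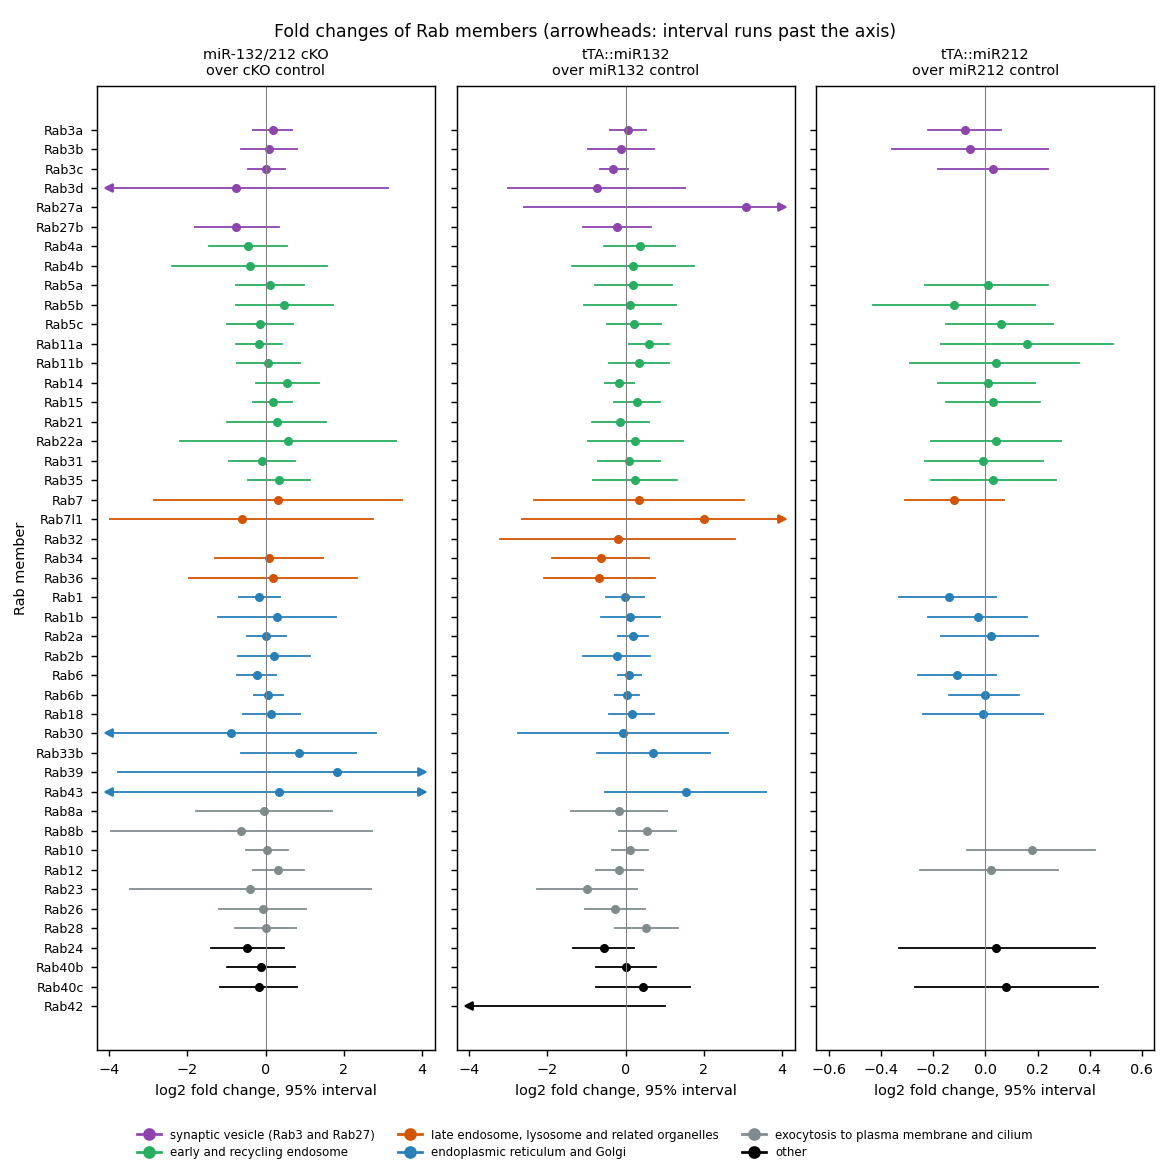
Log2 fold changes (points) with 95% intervals (lines) of each listed Rab member from edgeR's quasi-likelihood fit, with genes down the page, coloured by location, and a narrower axis for tTA::miR212. Every interval spans 0 but that of Rab11a in tTA::miR132, at 0.08 to 1.10, and the point of Rab42 in tTA::miR132, at -5.23, lies past the axis.

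The groups of libraries overlapped for most members. In the deletion, 4 members were higher and 7 lower in both cKO libraries than in both controls (9.3% and 16.3% of members, against 14.3% and 18% of all genes). In tTA::miR132, 10 members were higher and 5 lower without overlap (22.2% and 11.1%, against 18.8% and 14.3% of all genes). In tTA::miR212, 0 were higher and 1, Rab6, was lower without overlap (0% and 4.17%, against 6.47% and 4.96% of all genes). Of these 6 shares, the higher members of tTA::miR132 were the only ones above the share of all genes. With cKO library 1 left out, cKO library 2 lay above both controls for 18 members and below both for 16 (41.9% and 37.2%, against 35.4% and 33.1% of all genes).

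The summed level of the family varied little between libraries of the deletion and tTA::miR212 tables, and more in the tTA::miR132 table. It was 8583 and 8794 CPM in miR-132/212 cKO libraries and 8749 and 8540 CPM in cKO control libraries. In the tTA::miR132 table it was 9001 and 8286 CPM in tTA::miR132 libraries and 8401 and 7867 CPM in miR132 control libraries. In the tTA::miR212 table it was 5817, 5670 and 5652 CPM in tTA::miR212 libraries and 5672, 5703 and 5879 CPM in miR212 control libraries. The groups overlapped in each table. Endoplasmic reticulum and Golgi members made up the greatest part of it in the libraries of each control group, between 42.9% and 47.6%, while early and recycling endosome members made up between 19.8% and 26.8% and synaptic vesicle members between 16.6% and 20%. In miR132 control library 2 these classes were nearly level, at 19.8% for the endosomal and 20% for the synaptic members.

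Rab3a, the major Rab of synaptic vesicles in the brain, was among the most abundant members. Its transcript stood at 668 and 554 CPM in miR-132/212 cKO libraries and at 545 and 555 CPM in cKO control libraries, and at 816 and 522 CPM in tTA::miR132 libraries and 591 and 666 CPM in miR132 control libraries. In tTA::miR212 libraries it stood at 675, 638 and 639 CPM, and in miR212 control libraries at 664, 680 and 703 CPM. The groups overlapped in all 3 tables. The log2 fold change of Rab3a was 0.18 (SE 0.20, adjusted p = 0.999) in the deletion, 0.05 (SE 0.21, adjusted p = 0.999) in tTA::miR132 and -0.08 (SE 0.07, adjusted p = 0.931) in tTA::miR212. Without cKO library 1 it was -0.00 in the deletion. The interval of the tTA::miR212 value ran between -0.22 and 0.06. Its 6 deposited transcripts in that table, which share reads, gave log2 fold changes of the same sign, between -0.07 and -0.14.

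Rab3c, a close relative of Rab3a on synaptic vesicles, had the smallest p among the synaptic members of tTA::miR132. It stood at 606 and 543 CPM in tTA::miR132 libraries against 675 and 707 CPM in miR132 control libraries, with no overlap. The log2 fold change was -0.31 (SE 0.16, interval -0.66 to 0.05), and it did not pass (unadjusted p = 0.0817, adjusted p = 0.997). In the deletion Rab3c stood at 779 and 696 CPM in miR-132/212 cKO libraries and 799 and 680 CPM in cKO control libraries, a log2 fold change of 0.02 (SE 0.19). This value was -0.10 once cKO library 1 was left out. In the tTA::miR212 table it stood at 182, 223 and 227 CPM in tTA::miR212 libraries and 224, 188 and 204 CPM in miR212 control libraries, a log2 fold change of 0.03 (SE 0.10). The groups overlapped in the deletion and tTA::miR212 tables.

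Rab3b and Rab3d, the remaining Rab3 members, had lower levels per kilobase of exon, at 36.8 and 3.9 CPM in cKO control libraries, against 247 for Rab3a and 84 for Rab3c. Rab3b stood at 120 and 152 CPM in miR-132/212 cKO libraries and 121 and 137 CPM in cKO control libraries, and at 63.9 and 126 CPM in tTA::miR132 libraries and 97.8 and 100 CPM in miR132 control libraries. It stood at 85.1, 68.6 and 66.2 CPM in tTA::miR212 libraries and 67.7, 80.8 and 78 CPM in miR212 control libraries. The groups of Rab3b overlapped throughout, and its log2 fold changes were 0.09 (SE 0.29), -0.11 (SE 0.39) and -0.06 (SE 0.14) in the order of those tables, with 0.22 for the deletion without cKO library 1. Rab3d, the Rab3 form of exocrine and secretory granules, had 25 and 156 counts in miR-132/212 cKO libraries and 76 and 196 in cKO control libraries, and 86 and 145 in tTA::miR132 libraries and 190 and 140 in miR132 control libraries. Its log2 fold change in the deletion was -0.77, or -0.00 without cKO library 1. At such counts its intervals ran between -4.68 and 3.13 in the deletion and between -3.01 and 1.53 in tTA::miR132.

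Rab27b, which carries secretory and dense-core vesicles to the plasma membrane, had the smallest p among the members of the deletion. It stood at 38.7 and 74.2 CPM in miR-132/212 cKO libraries against 93.3 and 97.8 CPM in cKO control libraries. Both cKO libraries lay below both controls, library 1 further than library 2. The log2 fold change was -0.75 (SE 0.44, interval -1.82 to 0.33, unadjusted p = 0.139, adjusted p = 0.999), and without cKO library 1 it was -0.38 (adjusted p = 0.92). In tTA::miR132 Rab27b stood at 68.4 and 66.1 CPM, within the 65.2 and 86.5 CPM of miR132 control libraries. Rab27a, its paralog in secretory lysosomes, was listed only in the tTA::miR132 table, with 217 and 33 counts in tTA::miR132 libraries against 15 and 5 in miR132 control libraries. Its log2 fold change of 3.08 (SE 2.60) had an interval between -2.60 and 8.76.

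**Figure D2:**
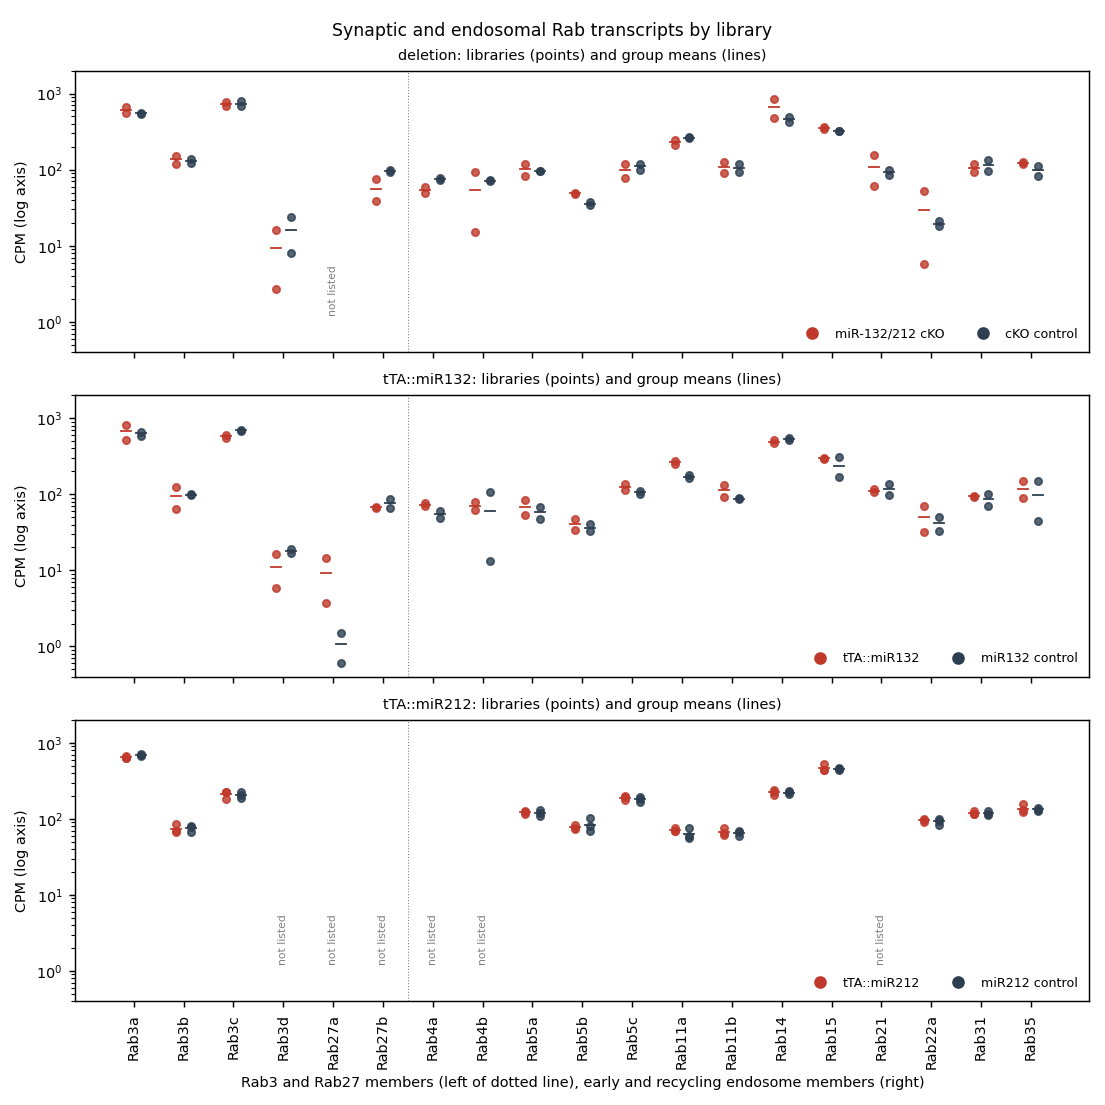
CPM on a log axis of each synaptic and endosomal member (horizontal axis) in every library (points) with group means (lines), for the deletion, tTA::miR132 and tTA::miR212 tables from top to bottom, each with the modified mice left of their controls. The miR-132/212 cKO points of Rab22a and Rab4b lie far apart, at 5.74 and 52.5 CPM and at 15.2 and 93.4 CPM, whereas the tTA::miR212 points lie close to their controls.

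Rab11a, the Rab of recycling endosomes that returns receptors to the cell surface and feeds AMPA receptors to dendritic spines, was the member closest to a call in tTA::miR132. It stood at 251 and 277 CPM in tTA::miR132 libraries against 178 and 162 CPM in miR132 control libraries, or 264 ± 18.7 CPM against 170 ± 10.8 CPM (SD, n = 2 each). Both tTA::miR132 libraries lay above both controls. The log2 fold change was 0.59 (SE 0.23, interval 0.08 to 1.10), with an unadjusted p of 0.0261 and an adjusted p of 0.997 in edgeR's quasi-likelihood test. DESeq2 gave an adjusted p of 0.0833, and over all alternatives of this result the adjusted p lay between 0.0833 and 1. In the authors' deposited table Rab11a had the lowest q-value of the tTA::miR132 members, 4.73e-16.

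Rab11a was not higher in the other tables beyond the spread. In the deletion it stood at 247 and 211 CPM in miR-132/212 cKO libraries against 267 and 259 CPM in cKO control libraries, lower without overlap. Its log2 fold change there was -0.17 (SE 0.24, interval -0.76 to 0.42), or -0.33 without cKO library 1. In the tTA::miR212 table it stood at 69.8, 69.3 and 76.3 CPM in tTA::miR212 libraries and 76.5, 59.3 and 55.3 CPM in miR212 control libraries, a log2 fold change of 0.16 (SE 0.16, interval -0.17 to 0.49). The transcript deposited there ends at chr9:64564577-64585547, 1471 bases short of the annotated 3′ end, and leaves out the seed match. Rab11b, the brain-rich paralog, stood at 134 and 93.2 CPM in tTA::miR132 libraries and 85.4 and 89.1 CPM in miR132 control libraries, again without overlap, at a log2 fold change of 0.34 (SE 0.35, adjusted p = 0.997). Its log2 fold changes were 0.06 (SE 0.33) in the deletion, or 0.25 without cKO library 1, and 0.04 (SE 0.16) in tTA::miR212.

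Rab5a, Rab5b and Rab5c, which govern fusion of incoming vesicles with early endosomes, were called in no table. In the deletion Rab5b stood at 49.1 and 48.3 CPM in miR-132/212 cKO libraries against 37.3 and 34.1 CPM in cKO control libraries, without overlap, at a log2 fold change of 0.47 (SE 0.51). Rab5a stood at 120 and 83.4 CPM in miR-132/212 cKO libraries around the 96.2 and 96 CPM of cKO control libraries, and Rab5c at 78 and 118 CPM in miR-132/212 cKO libraries, overlapping the 100 and 120 CPM of cKO control libraries. Without cKO library 1 the log2 fold changes were -0.22 for Rab5a, 0.43 for Rab5b and 0.09 for Rab5c. Across all 3 paralogs the log2 fold changes lay between 0.12 and 0.21 in tTA::miR132, with SEs of 0.32 to 0.54. In tTA::miR212 they were 0.01 (SE 0.11) for Rab5a, -0.12 (SE 0.15) for Rab5b and 0.06 (SE 0.10) for Rab5c. Rab5a shares 8.12% of its 30-base stretches with other genes, mostly 4921523A10Rik, so some of its reads could be split.

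Rab14, which works between the trans-Golgi and early endosomes, had the second smallest p of the deletion members. It stood at 856 and 472 CPM in miR-132/212 cKO libraries against 499 and 428 CPM in cKO control libraries. Only cKO library 1 lay above both controls. The log2 fold change of 0.55 (SE 0.33, interval -0.26 to 1.37, unadjusted p = 0.146, adjusted p = 0.999) became 0.02 without that library. In the other tables it was -0.16 (SE 0.17) for tTA::miR132 and 0.01 (SE 0.09) for tTA::miR212.

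Rab4a and Rab4b serve the fast recycling route. Rab4a stood at 58.8 and 49.3 CPM in miR-132/212 cKO libraries, below the 77.9 and 72.2 CPM of cKO control libraries, and at 69.2 and 75.9 CPM in tTA::miR132 libraries, above the 61.1 and 49.1 CPM of miR132 control libraries. Neither difference passed, at log2 fold changes of -0.45 (SE 0.41) in the deletion, or -0.62 without cKO library 1, and 0.36 (SE 0.42) in tTA::miR132. Rab4b stood at 15.2 and 93.4 CPM in miR-132/212 cKO libraries and 72.4 and 70.9 CPM in cKO control libraries, and at 78.5 and 62.1 CPM in tTA::miR132 libraries and 107 and 13.4 CPM in miR132 control libraries. A single library, cKO library 1 and miR132 control library 2, was low in each table, and the deletion value of Rab4b was -0.40 with cKO library 1 and 0.37 without it. Rab4b is uncertain in addition because 82.4% of its 30-base stretches are shared with Mia1.

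Rab21, an endosomal Rab of integrin traffic, and Rab22a, which sorts cargo from early to recycling endosomes, split the cKO libraries. Rab21 stood at 156 and 61.5 CPM in miR-132/212 cKO libraries around the 99.3 and 85.2 CPM of cKO control libraries. Rab22a stood at 5.74 and 52.5 CPM in miR-132/212 cKO libraries around the 17.9 and 21.1 CPM of cKO control libraries. Without cKO library 1 the log2 fold change of Rab21 was -0.60, against 0.28 with it, and that of Rab22a 1.41, against 0.57. In tTA::miR132 their log2 fold changes were -0.13 (SE 0.33) for Rab21 and 0.25 (SE 0.55) for Rab22a, and in tTA::miR212 that of Rab22a was 0.04 (SE 0.12).

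Read as a class, early and recycling endosome members had a median log2 fold change above that of all genes in each table, none of them called. In tTA::miR132, 11 of 13 had a log2 fold change above 0, with a median of 0.21, against -0.00 over all genes. Their summed level was 1944 and 1895 CPM in tTA::miR132 libraries and 1813 and 1557 CPM in miR132 control libraries. The lowest, miR132 control library 2, had 4.49% of its genes at a count of 0, against 1.44% in miR132 control library 1. In tTA::miR132 libraries these shares were 2.43% and 0.852%. No class median without miR132 control library 2 is given. In tTA::miR212, 8 of 10 endosomal members were above 0 with a median of 0.03, against 0.00. In the deletion, 8 of 13 were above 0 with a median of 0.11, against -0.03, and without cKO library 1 again 8, with a median of 0.09, against -0.01. Over all genes, 49.9%, 51% and 47.9% were above 0 in that order. Other classes were also above all genes. In the deletion, endoplasmic reticulum and Golgi members and late endosome members each had a median of 0.14, or -0.14 and 0.27 without cKO library 1. Endoplasmic reticulum and Golgi members had 0.11 in tTA::miR132, and exocytosis members 0.10 in tTA::miR212. Sums of cell type markers also differed between groups. Summed oligodendrocyte markers (4 of 5 measured) were 3963 and 3772 CPM in tTA::miR132 libraries against 3162 and 3308 CPM in miR132 control libraries. Summed microglial markers (3 of 5 measured) were 365.6, 311.3 and 319.1 CPM in tTA::miR212 libraries against 281.7, 299.4 and 306.8 CPM in miR212 control libraries. Summed neuronal markers (4 of 7 measured) were 6579 and 6510 CPM in miR-132/212 cKO libraries against 5748 and 6419 CPM in cKO control libraries. These 3 sums were higher without overlap, and their part in the class values was not tested. The synaptic vesicle members had 2 of 6 above 0 in tTA::miR132 (median -0.17), 1 of 3 in tTA::miR212 (median -0.06) and 3 of 5 in the deletion (median 0.02, or -0.00 with 1 of 5 above 0 without cKO library 1).

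Set directly against each other, Rab3 members took a smaller level per endosomal level in the modified mice than in controls on average. The summed CPM of Rab3a to Rab3d over that of the early and recycling endosome members was 0.692 and 0.749 in miR-132/212 cKO libraries and 0.793 and 0.747 in cKO control libraries. It was 0.767 and 0.638 in tTA::miR132 libraries and 0.763 and 0.957 in miR132 control libraries. It was 0.571, 0.6 and 0.619 in tTA::miR212 libraries and 0.632, 0.632 and 0.625 in miR212 control libraries. The groups overlapped in the deletion and in tTA::miR132, whereas in tTA::miR212 all 3 transgenic libraries lay below all 3 controls. The difference in log2 ratio was -0.10 (pooled SD 0.07) in the deletion, -0.29 (pooled SD 0.21) in tTA::miR132 and -0.08 (pooled SD 0.04) in tTA::miR212, with 4, 4 and 3 Rab3 members listed. Single libraries moved it. In the deletion it was -0.04 without cKO library 1, -0.15 without cKO library 2 and -0.05 without cKO control library 1. In tTA::miR132 it was -0.15 without tTA::miR132 library 2, -0.45 without miR132 control library 1 and -0.12 without miR132 control library 2, and in tTA::miR212 -0.05 without tTA::miR212 library 1. It is a sum led by a few abundant members and is given as a description, with no p.

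**Figure D3:**
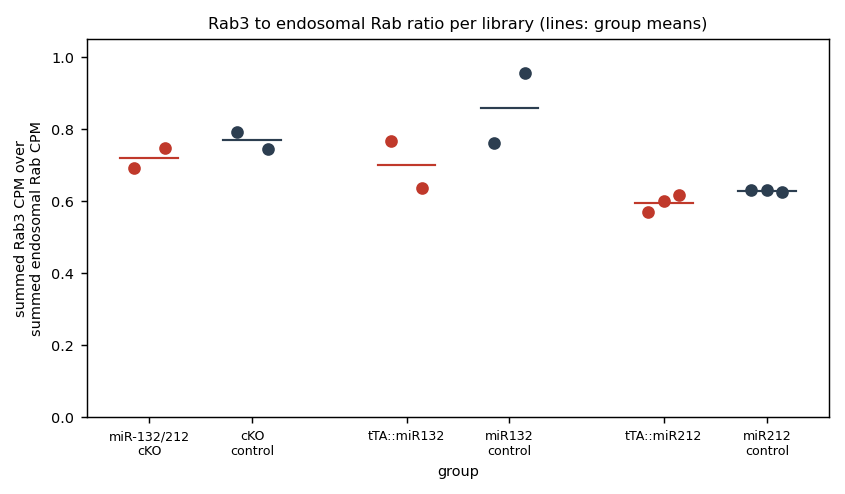
Ratio of summed Rab3 CPM to summed early and recycling endosome Rab CPM in each library (points) with group means (lines), each modified group left of its control. The tTA::miR212 libraries, at 0.571 to 0.619, lie just under their controls at 0.625 to 0.632, and the miR132 control libraries are spread from 0.763 to 0.957.

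Rab7, the Rab of late endosomes and lysosomes, differed more between tables than between groups. It had 155 and 138 counts in miR-132/212 cKO libraries and 67 and 147 in cKO control libraries, and 227 and 103 in tTA::miR132 libraries and 153 and 45 in miR132 control libraries. In the shallower tTA::miR212 table it had 242, 306 and 292 counts in tTA::miR212 libraries and 264, 272 and 293 in miR212 control libraries. The groups overlapped in each table, and the log2 fold changes were 0.32 (SE 1.29), 0.35 (SE 1.23) and -0.12 (SE 0.09) in the same order, with 0.17 for the deletion without cKO library 1. Only the tTA::miR212 value is narrow, with an interval between -0.31 and 0.07. The first 2 tables count Rab7 over the RefSeq interval chr6:87950428-87963684 of mm9 as deposited. It stops 1328 bases before the 3′ end of the Ensembl transcript at chr6:87949100-87995264 that the tTA::miR212 table counts. The interval, on the minus strand, also falls short at the 5′ end, and holds 625 bases of exon against 2159 in that transcript. The part of either end in the level of Rab7 was not tested. Rab7 also shares 8.93% of its 30-base stretches, mostly with Gm5577.

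Levels of other members were also unlike between the tables, whether or not their counted ends differ. Tables were normalized separately and list different genes, so levels across them are a description. Of the 6 shared members whose 3′ ends lie over 1000 bases apart, Rab7 and Rab22a were over 2-fold higher and Rab3c, Rab10 and Rab11a over 2-fold lower in miR212 control libraries than in cKO control libraries. Of the 18 whose ends lie closer, 2 were over 2-fold higher (Rab1b and Rab5b) and 5 over 2-fold lower (Rab2a, Rab6, Rab12, Rab14 and Rab18). Rab6, for one, averaged 628 CPM in miR212 control libraries and 1546 CPM in cKO control libraries, and Rab1b 232 CPM in miR212 control libraries and 111 CPM in cKO control libraries. Rab22a, whose RefSeq interval stops 5161 bases short, averaged 93.1 CPM in miR212 control libraries and 19.5 CPM in cKO control libraries. Rab3c, Rab10 and Rab11a, whose transcripts in the tTA::miR212 table stop 6135, 1999 and 1471 bases short, averaged 205, 96.1 and 63.7 CPM in miR212 control libraries and 740, 320 and 263 CPM in cKO control libraries. The part of these ends in the levels was not tested. Across the 24 shared members the log2 control levels of those tables had a Pearson r of 0.60, or 0.71 without Rab7, while the first 2 tables, which count the same RefSeq entry for 40 of 42 shared members (not for Rab23 and Rab27b), had 0.96 over those 42.

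**Figure D4:**
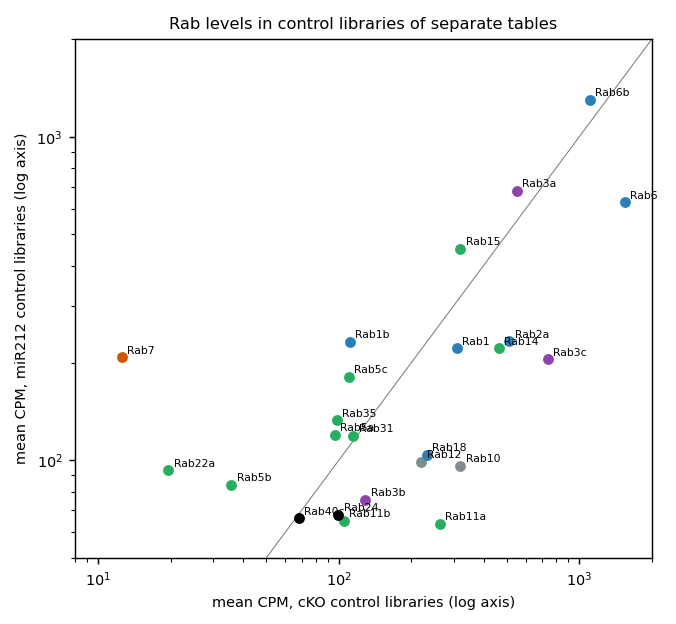
Mean CPM of the 24 shared members in miR212 control libraries (vertical log axis) against cKO control libraries (horizontal log axis), coloured by location as in the plot of fold changes, with the line of equal values. Rab7, at 208 against 12.5 CPM, and Rab22a lie far above the line, and Rab3c, Rab10 and Rab11a lie below it.

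The other late endosome members were scarce. Rab7l1, a Rab of the trans-Golgi and lysosome that works with Lrrk2, had 256 and 41 counts in tTA::miR132 libraries against 44 and 8 in miR132 control libraries, and its interval ran from -2.64 to 6.64. In the deletion it had 57 and 141 counts in miR-132/212 cKO libraries and 182 and 102 in cKO control libraries, and its log2 fold change of -0.61 was -0.14 without cKO library 1. Rab32, Rab34 and Rab36 had log2 fold changes between -0.67 and 0.19 across the tables that list them, none of them called, and without cKO library 1 the deletion values were 0.36 for Rab34 and 0.85 for Rab36.

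The endoplasmic reticulum and Golgi members included the most abundant Rabs of all. Per kilobase of exon, Rab6 stood at 427 CPM in cKO control libraries, Rab2a at 248, Rab3a at 247 and Rab6b at 233, while Rab39, at 1.3, was the lowest. Rab6, which runs Golgi exit and retrograde traffic, stood at 1057 and 1540 CPM in miR-132/212 cKO libraries and 1554 and 1537 CPM in cKO control libraries, so that library 1 alone was low and the log2 fold change of -0.23 was -0.02 without it. In the tTA::miR212 table Rab6 stood at 603, 607 and 547 CPM in tTA::miR212 libraries against 649, 615 and 618 CPM in miR212 control libraries. These were the only groups of that table without overlap among members, at a log2 fold change of -0.11 (SE 0.07, interval -0.26 to 0.04, unadjusted p = 0.138, adjusted p = 0.913). In tTA::miR132 the log2 fold change of Rab6 was 0.10 (SE 0.14).

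Rab6b, the neuronal paralog of Rab6, varied little between groups. It stood at 1097 and 1189 CPM in miR-132/212 cKO libraries and 1088 and 1121 CPM in cKO control libraries, and at 1248 and 1114 CPM in tTA::miR132 libraries and 1201 and 1046 CPM in miR132 control libraries. In tTA::miR212 libraries it stood at 1312, 1234 and 1376 CPM and in miR212 control libraries at 1226, 1312 and 1369 CPM. Its log2 fold changes were 0.07 (SE 0.16), 0.03 (SE 0.14) and -0.00 (SE 0.07), and the groups overlapped in each table.

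Rab1, the Rab of transport between endoplasmic reticulum and Golgi, had the smallest p among the tTA::miR212 members. It stood at 195, 203 and 209 CPM in tTA::miR212 libraries against 240, 216 and 209 CPM in miR212 control libraries. The log2 fold change was -0.14 (SE 0.09, interval -0.33 to 0.04, unadjusted p = 0.129, adjusted p = 0.913). Of its 6 deposited transcripts in that table all had a negative value, between -0.14 and -0.27, and they share reads. In edgeR's quasi-likelihood fit over all transcripts, the smallest unadjusted p among them was 0.0381 (adjusted p = 0.926), for a transcript not kept. Another that was not kept had an unadjusted p of 0.0399. In the deletion Rab1 was -0.16 (SE 0.22) and in tTA::miR132 -0.02 (SE 0.22).

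The scarce Golgi members varied most. Rab33b, a Golgi Rab that also takes part in autophagy, stood at 141 and 47.5 CPM in miR-132/212 cKO libraries around the 57.9 and 50.4 CPM of cKO control libraries, a log2 fold change of 0.84 (SE 0.60) that was -0.20 without cKO library 1. Rab39 had 218 and 34 counts in miR-132/212 cKO libraries against 4 and 60 in cKO control libraries, a log2 fold change of 1.83 that was -0.15 without cKO library 1. Rab30 had 76 and 70 counts in miR-132/212 cKO libraries against 145 and 111 in cKO control libraries, without overlap, at a log2 fold change of -0.89 (SE 1.52). Rab43 had 490 and 152 counts in tTA::miR132 libraries against 87 and 67 in miR132 control libraries, at a log2 fold change of 1.54 (SE 0.94, adjusted p = 0.997). In the deletion Rab43 had 0 and 390 counts in miR-132/212 cKO libraries against 105 and 164 in cKO control libraries, a log2 fold change of 0.35 that was 1.36 without cKO library 1.

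Among the Rabs of exocytosis and the cilium, Rab8b and Rab23 stood out in tTA::miR132. Rab8b, which carries cargo from the trans-Golgi to the surface, stood at 137 and 117 CPM in tTA::miR132 libraries against 75.4 and 91.3 CPM in miR132 control libraries, a log2 fold change of 0.56 (SE 0.33, unadjusted p = 0.118, adjusted p = 0.997). Rab23, known as a brake on Hedgehog signalling, stood at 16.4 and 35.2 CPM in tTA::miR132 libraries against 53.3 and 46.3 CPM in miR132 control libraries, a log2 fold change of -0.99 (SE 0.59, unadjusted p = 0.116, adjusted p = 0.997). The groups did not overlap for either. In the deletion both rested on cKO library 1, where Rab8b had 21 counts and Rab23 27, against 974 and 598 in cKO library 2, 848 and 278 in cKO control library 1, and 552 and 444 in cKO control library 2. Their log2 fold changes were -0.63 for Rab8b and -0.39 for Rab23, and 0.34 and 0.55 without cKO library 1.

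Rab12, which directs recycling receptors to degradation, stood at 306 and 232 CPM in miR-132/212 cKO libraries against 214 and 225 CPM in cKO control libraries, without overlap, at a log2 fold change of 0.32 (SE 0.26, adjusted p = 0.999) that was 0.06 without cKO library 1. Rab10, of exocytosis and axonal membrane supply, stood at 108, 107 and 114 CPM in tTA::miR212 libraries against 109, 87 and 92.4 CPM in miR212 control libraries, at a log2 fold change of 0.18 (SE 0.12, interval -0.07 to 0.42), the highest of that table's members. Rab24, tied to autophagy, stood at 56.8 and 84.9 CPM in miR-132/212 cKO libraries against 113 and 86.3 CPM in cKO control libraries. It was also lower in tTA::miR132, at 73.4 and 76.9 CPM against 93.5 and 121 CPM in miR132 control libraries. The log2 fold changes of Rab24 were -0.47 (SE 0.38) in the deletion, or -0.24 without cKO library 1, and -0.56 (SE 0.35) in tTA::miR132, and neither passed. Rab42 had 0 and 6 counts in tTA::miR132 libraries against 18 and 186 in miR132 control libraries, and its fitted log2 fold change of -5.23 (SE 2.85) was -2.45 (SE 6.93) without miR132 control library 2. Rab40c, a Rab linked to a ubiquitin ligase, was among the lowest of the tTA::miR212 table, at 75.1, 71.2 and 65.6 CPM in tTA::miR212 libraries and 65.5, 81.6 and 51.5 CPM in miR212 control libraries.

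The calls of the deletion depended on which cKO library was kept. With cKO library 2 left out, so that library 1 alone was set against the controls and assumed to vary as they do, edgeR called 12 of 43 members, or 27.9%, against 43% of all genes tested. Of these, Rab14 (log2 fold change 0.95), Rab21 (0.83), Rab33b (1.45) and Rab39 (2.65) were higher. Lower were Rab1b (-0.98), Rab3d (-2.52), Rab4b (-2.17), Rab6 (-0.48), Rab8b (-5.06), Rab23 (-3.79), Rab27b (-1.24) and Rab43, which had no count in library 1. With cKO library 1 left out instead, 0 members were called, against 0.0763% of all genes. In the authors' deposited tables, 21 of 43 members had a q-value under 0.05 in the deletion (48.8%, against 54.3% of all genes), with Rab1b lowest at 4.92e-16. Rab1b, which works with Rab1, stood at 53.9 and 217 CPM in miR-132/212 cKO libraries, on either side of the 110 and 113 CPM of cKO control libraries, a log2 fold change of 0.28 that was 0.95 (adjusted p = 0.199) without cKO library 1. The authors' deposited tables gave 27 of 45 members (60%, against 53.1% of all genes) in tTA::miR132 and 0 of 24 (against 0.0866% of all genes) in tTA::miR212.

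**Figure D5:**
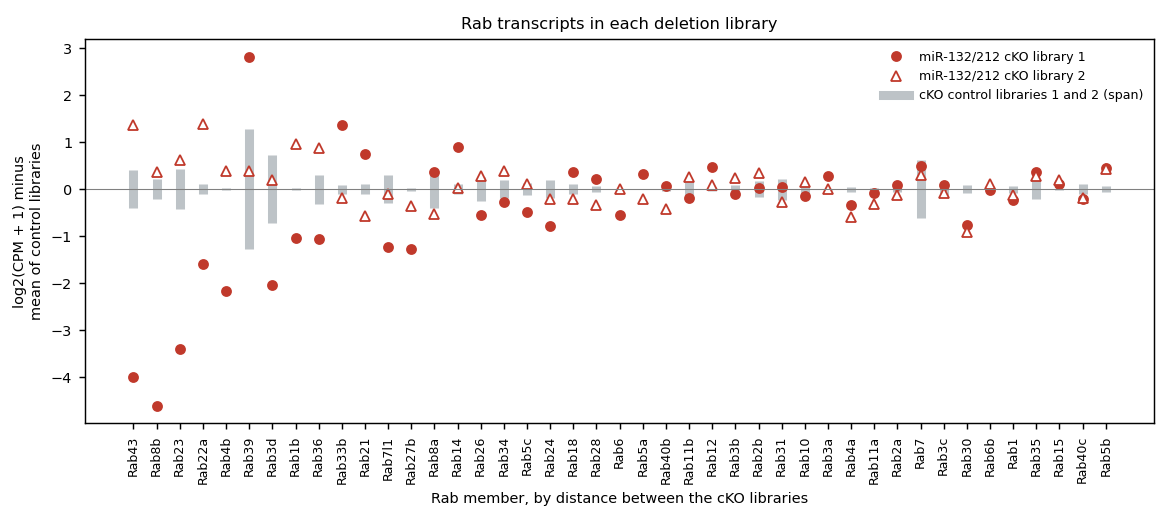
Log2(CPM + 1) of each member in miR-132/212 cKO library 1 (filled circles) and library 2 (open triangles) minus the mean of the cKO control libraries, whose span is the grey bar, with members ordered by the distance between the cKO libraries. For members at the far left such as Rab8b, with 21 and 974 counts, the cKO libraries lie on either side of the controls. For Rab39 and Rab3d, also at the left, cKO library 2 lies within the span of the controls. For members at the right, such as Rab5b and Rab15, the cKO libraries lie together.

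No member with the seed match was called in any table. In the deletion the 7 had a median log2 fold change of 0.09, with 4 above 0, against 0.03 for the 36 without a match. Without cKO library 1 these medians were 0.18, again with 4 above 0, and -0.00. In tTA::miR132 the 7 had a median of 0.44, with 5 above 0, against 0.09 for the 37 without. That median is the value of Rab40c, at 54.5 and 55.2 CPM in tTA::miR132 libraries and 57.3 and 21.8 CPM in miR132 control libraries. Its groups overlapped, and miR132 control library 2 alone was low. No median without that library is given. In tTA::miR212 the 4 listed had a median of 0.06, with 3 above 0, against 0.01 for the 20 without. The highest of the 4, Rab11a at 0.16, is counted there over a transcript that leaves out the match. Rab15, an endosomal Rab rich in neurons, stood at 347 and 366 CPM in miR-132/212 cKO libraries, above the 318 and 322 CPM of cKO control libraries, at a log2 fold change of 0.18 (SE 0.20). In the tTA::miR132 table Rab15 stood at 292 and 303 CPM in tTA::miR132 libraries and 304 and 169 CPM in miR132 control libraries.

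The proteins that work on Rabs gave the same count of calls. None of the listed genes of prenylation and recycling, Rab3 and Rab27 regulation, endosomal Rab regulation, or vesicle release was called, of 63 measured in the deletion, 63 in tTA::miR132 and 51 in tTA::miR212. At an unadjusted p under 0.05 they were 0 of 63, 2 of 63 (Rims1 and Vamp1) and 1 of 51 (Wdr7), against 0.839%, 2.82% and 5.65% of all genes. Gdi2, a GDP dissociation inhibitor that draws Rabs off membranes, stood at 141 and 234 CPM in miR-132/212 cKO libraries against 358 and 236 CPM in cKO control libraries, a log2 fold change of -0.65 (SE 0.34, adjusted p = 0.999) that was -0.35 without cKO library 1. In the tTA::miR212 table Gdi2 stood at 168, 222 and 189 CPM in tTA::miR212 libraries against 167, 169 and 166 CPM in miR212 control libraries, a log2 fold change of 0.20 (SE 0.10, adjusted p = 0.9). Neither passed, and the signs differ.

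Rims1, the active-zone scaffold that binds Rab3, had the smallest p among these genes in tTA::miR132. It stood at 13.7 and 10.9 CPM in tTA::miR132 libraries against 25.4 and 60.7 CPM in miR132 control libraries, a log2 fold change of -1.86 (SE 0.73, unadjusted p = 0.026, adjusted p = 0.997). Rab11fip2, a Rab11 effector, stood at 80.7 and 95.1 CPM in tTA::miR132 libraries against 114 and 150 CPM in miR132 control libraries, a log2 fold change of -0.63 (SE 0.33, adjusted p = 0.997). Both were lower without overlap. Myo5b, the motor that carries Rab11 vesicles, stood at 144 and 125 CPM in miR-132/212 cKO libraries against 92 and 81.8 CPM in cKO control libraries, a log2 fold change of 0.66 (SE 0.31, adjusted p = 0.999) that was 0.51 without cKO library 1. Mon1b, of the exchange factor for Rab7, stood at 76.6 and 43.2 CPM in miR-132/212 cKO libraries against 32.5 and 17.1 CPM in cKO control libraries, at 1.31 (SE 0.63, adjusted p = 0.999), or 0.79 without cKO library 1.

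In tTA::miR212, 12 of the 13 synaptic vesicle and release genes had a log2 fold change below 0, with a median of -0.07 against 0.00 over all genes, and none was called. Of all genes 51% were above 0. Summed neuronal markers (5 of 7 measured, of which Snap25, Syp and Slc17a7 are also in this list) were 10717, 9930 and 10134 CPM in tTA::miR212 libraries against 10377, 10742 and 11081 CPM in miR212 control libraries, with overlap, and the microglial sum above was higher without overlap. Their part in this list was not tested. Cplx2, a complexin that clamps vesicle fusion, stood at 2366, 2432 and 2389 CPM in tTA::miR212 libraries against 2371, 2611 and 2670 CPM in miR212 control libraries, a log2 fold change of -0.10 (SE 0.06, adjusted p = 0.9). Vamp1, with the smallest p of this list, stood at 174, 201 and 142 CPM in tTA::miR212 libraries against 189, 188 and 224 CPM in miR212 control libraries. Its log2 fold change was -0.22 (SE 0.12, adjusted p = 0.9). Rph3a and Wdr7 come from the list of Rab3 and Rab27 regulators and effectors instead. Rph3a, a Rab3 effector, stood at 609, 550 and 577 CPM in tTA::miR212 libraries against 587, 640 and 700 CPM in miR212 control libraries, at -0.16 (SE 0.08, adjusted p = 0.9). Wdr7, of the rabconnectin complex, stood at 277, 314 and 376 CPM in tTA::miR212 libraries against 292, 275 and 253 CPM in miR212 control libraries, at 0.23 (SE 0.10, adjusted p = 0.874). The groups overlapped for each of these genes. In the deletion 6 of 12 measured synaptic vesicle and release genes were below 0, or 4 of 12 without cKO library 1, and in tTA::miR132 8 of 12.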

How the data were processed

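Polyadenylated hippocampal RNA was sequenced by the submitters, who aligned reads with Bowtie 0.12.7 to mm9, per the series design text, which also gives relative abundance in FPKM from Cufflinks 1.2. The labels and headers do not state how the whole-number counts were made, from which annotation release or with which gene filter. The authors deposited whole-number counts per RefSeq gene (deletion, tTA::miR132) or Ensembl transcript (tTA::miR212) and q-values of their own comparisons, per the file headers. Their 14 columns of normalized values were left unused. Columns show a group and a number but not which labelled sample they are.

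In the tTA::miR212 table, each of 4618 symbols was represented by its transcript of highest mean count. CPM scales a count to the counts kept in its library. Each table was fitted whole with edgeR 4.0.16 (R 4.3.3, filterByExpr, TMM, robust quasi-likelihood test), with Benjamini-Hochberg adjustment over all its genes at 0.05. All members passed the filter on low counts. The script was tested on counts simulated from each table's means and spread, with 100 genes changed 2-fold and 100 changed 4-fold. It recovered 0 and 10 of these in the deletion, 8 and 42 in tTA::miR132, and 99 and 100 in tTA::miR212. A lack of calls in the first 2 tables therefore does not show a lack of change. Alternatives were DESeq2 1.42.0, limma-voom (limma 3.58.1), library totals, no filter, a block on the column number, all transcripts, and each library left out. The labels give no batch.

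The members and lists were chosen with earlier results of these data known. The rule for named genes took the Rab3 members, Rab27b, Rab7, a list of 10 early and recycling endosome Rabs, the 5 members of smallest p per comparison, the 3 highest and 3 lowest control levels per table, and the 2 smallest p per pathway list. Rab15, Rab1b, Rab32, Rab34 and Rab36, and values of other members in tables where the rule did not take them, were chosen after their values were seen.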

Additional observations from a re-analysis of the deposited data

How the results depend on the processing

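The count of Rab members called stayed at 0 in tTA::miR132 and tTA::miR212 under every alternative run. In the deletion it stayed at 0 except with miR-132/212 cKO library 2 left out, so that over single libraries left out it ran from 0 to 12. The count over all genes of the deletion was 0, against 12 with DESeq2, 1 with limma-voom and 1 to 4527 with a library left out, the highest again without cKO library 2 and 8 without cKO library 1. The count over all genes of tTA::miR132 was 0, against 43 with DESeq2, 3 with limma-voom and 0 to 111 with a library left out, the highest without miR132 control library 1. The count over all genes of tTA::miR212 was 0, and 0 to 18 with a library left out, the highest without tTA::miR212 library 1. Called pathway genes ran from 0 to 28 in the deletion and from 0 to 1 in tTA::miR212 with a library left out. With all libraries, 63 and 51 such genes were measured, and the highest counts came without the same libraries. The fit that gave 28, without cKO library 2, called 43% of all genes, so it does not set these lists apart. Where a group is left with 1 library, it is assumed to vary like the others. The difference in log2 ratio of Rab3 to endosomal members stayed negative throughout, from -0.15 to -0.04 in the deletion, -0.45 to -0.12 in tTA::miR132 and -0.11 to -0.05 in tTA::miR212 with a library left out, and in tTA::miR132 it was -0.59 when mean log2(CPM + 1) replaced summed CPM. Adding Rab27 to Rab3 gave no value in tTA::miR212, where no Rab27 member was analysed. Same-numbered libraries did not deviate together, with a correlation of 0.015 in the deletion and 0.029 in tTA::miR132. With 2 libraries a group both same-numbered pairs must give the same value, so each is a single value. In tTA::miR212 the correlations were -0.076, 0.021 and -0.033. The numbers were not taken as pairs. With the replicate block 0 members were called in each table, and the genes called were 0 in the deletion, 1 in tTA::miR132 and 1 in tTA::miR212.

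Among named members, the settings other than leaving out a library changed a sign for Rab22a in the deletion alone, at -0.04 with limma-voom and -0.13 with the replicate block. Leaving out a library changed the sign of the log2 fold change of 12 named members in the deletion, none of them called with all libraries, with ranges for Rab3b (-0.05 to 0.22), Rab3c (-0.10 to 0.14), Rab3d (-2.52 to 0.22), Rab4b (-2.17 to 0.37), Rab5a (-0.22 to 0.38), Rab5c (-0.43 to 0.09), Rab7 (-0.20 to 1.14), Rab11b (-0.14 to 0.25), Rab21 (-0.60 to 0.83), Rab22a (-1.70 to 1.41), Rab33b (-0.20 to 1.45) and Rab39 (-0.15 to 4.98). In tTA::miR132 it did so for 10, which were Rab3a (-0.32 to 0.34), Rab3b (-0.66 to 0.29), Rab27b (-0.43 to 0.04), Rab4b (-0.61 to 2.33), Rab5a (-0.14 to 0.48), Rab5b (-0.13 to 0.33), Rab7 (-0.20 to 1.25), Rab21 (-0.37 to 0.17), Rab22a (-0.44 to 0.71) and Rab6b (-0.06 to 0.12). In tTA::miR212 it did so for 9, within narrow ranges, which were Rab3b (-0.17 to 0.01), Rab3c (-0.03 to 0.12), Rab5a (-0.06 to 0.07), Rab5b (-0.25 to 0.05), Rab5c (-0.01 to 0.11), Rab11b (-0.06 to 0.10), Rab14 (-0.05 to 0.06), Rab22a (-0.03 to 0.10) and Rab40c (-0.07 to 0.26). Apart from the libraries left out, the cause of these shifts was not tested. Counting error is greatest for scarce members, and the lowest count of a tTA::miR212 member was 66. How far counts or the spread between libraries set each interval was not separated.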
